A study of Mus musculus with 6 samples.

Results

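The genes described here are 49 genes of the cell cycle, 24 of DNA replication and the entry into S phase and 25 of mitosis, taken by their gene symbols from a table of 21899 mouse genes. All 49 were in the table, each in 1 row, and all 49 passed the filter on low values (at least 1 FPKM, fragments relative to exon length and library size, as the mean of the 6 samples), which 10853 genes passed. Tumors were grown under the skin of male C57BL/6 mice from LLC-luc cells, a luciferase-marked form of Lewis lung carcinoma, a transplantable mouse lung tumor. The Laser group was irradiated without photosensitizer, the PC-La group was given phycocyanin, a light-absorbing algal protein, beforehand, and in the SePC-La group this protein was enriched in selenium, with 2 samples of total tumor RNA for each of the 3. Per the labels the laser was at 620 nm for 10 min, 4 h after the injection, and injections into the tumor were given every 5 days, while the methods place them beneath or beside it. No group without laser was analysed here, so all 3 groups share the irradiation, and the cells of the host in the tumor are part of every sample. The labels call the tissue lung cancer tissue. The lung lineage markers Nkx2-1 and Scgb1a1 were at 0 in all samples, and Sftpc and Sftpb had means under 1 FPKM. Of the epithelial markers, the keratins Krt8 and Krt18 were between 78.1 and 166 FPKM, while Epcam, Krt19 and Cdh1 had means under 1 FPKM.

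A cell copies its DNA in S phase and separates the copies in mitosis. Origins are licensed when Cdc6 and Cdt1 load the ring of the 6 MCM proteins, and the ring becomes an active helicase when Cdc45 and the GINS complex join it. Polymerases then copy the strands, held on by the sliding clamp PCNA. Genes of this step are commonly driven by E2F factors, whose activity is held back by the retinoblastoma protein until cyclin and CDK complexes release it. Genes of G2 and mitosis are commonly controlled through a CHR element and CCAAT boxes, bound by the MuvB complex with B-MYB (Mybl2) and FOXM1 and by NF-Y. Dividing tumor cells express both sets, and cells at rest express little of either.

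Promoter sequences are shown because the replication and mitosis genes are known for different promoter elements. The members shown were first required to carry these elements and then ranked by p. Members without them are not shown, whatever their difference. The promoter table (RefSeq, GRCm38.p6) held 38 of the 49 members, 19 of each list, as windows from 250 bases before to 50 bases after the start. The letters searched on both strands were TTTCGCGC, TTTGGCGC, TTTCCCGC and TTTGCCGC for E2F, TTTGAA and TTCGAA for the CHR, and CCAAT. E2F letters were in the windows of 7 of the 19 replication genes (36.8%), 1 of the 19 mitosis genes (Cdk1, 5.26%) and 2.6% of the 27025 genes in the table. CHR letters were in 4 replication genes (21.1%), in 14 mitosis genes (73.7%) and in 21.7% of all genes. CCAAT was in 12 (63.2%), 16 (84.2%) and 41.1%, and CHR letters and CCAAT in 1 window in 21.1%, 73.7% and 8.61%. A match of letters describes the sequence and does not show that a factor binds.

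The lines give, 5′ to 3′ along the gene, the letters searched in capitals. For each list they come from the 4 genes with matching windows and the smallest p in any comparison. Where the letters lie in an annotated exon or after the start only the site is shown. Mcm5 lies at chr8:75109336-75109508 on the plus strand, bases -173 to -1 from the start, with overlapping E2F letters on both strands at -153 and -149. The Mcm3 site (chr1:20820266-20820294, minus strand) holds 2 E2F matches after the start. The Mcm7 sites (chr5:138172037-138172052 and chr5:138171856-138171871, minus strand) hold E2F letters at -165 and 17, the first beside the last letters of a CHR match and the second overlapping CCAAT. The Rfc3 site (chr5:151651197-151651222, minus strand) crosses the start.
Mcm5: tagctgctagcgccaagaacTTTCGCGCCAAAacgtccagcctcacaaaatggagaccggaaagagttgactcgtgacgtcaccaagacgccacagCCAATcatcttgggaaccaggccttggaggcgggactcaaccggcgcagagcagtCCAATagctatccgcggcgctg
Mcm3: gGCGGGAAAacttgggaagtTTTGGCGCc
Mcm7, upstream: AAccGCGGGAAAcagg
Mcm7, downstream: gacgTTTCGCGCCAAT
Rfc3: acgcTTTCGCGCtcGCGGGAAAactc

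Of the mitosis genes, Cdc20 carried CCAAT at -53 and CHR letters at -18, both before the start (chr4:118437353-118437416, minus strand). Kif23 (chr9:61946800-61946826), Aurka (chr2:172370571-172370641) and Bub1 (chr2:127831866-127831947), all on the minus strand, carried CCAAT or its reverse complement before the start. Their CHR letters lay after it, at 3, 33 and 15 bases from the start (sites chr9:61946788-61946801, chr2:172370529-172370542 and chr2:127831836-127831849).
Cdc20: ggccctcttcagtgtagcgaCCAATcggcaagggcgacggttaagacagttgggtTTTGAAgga
Kif23: ttcgccgcaggcggccgctgATTGGcc
Kif23, site: cctgTTTGAAatgc
Aurka: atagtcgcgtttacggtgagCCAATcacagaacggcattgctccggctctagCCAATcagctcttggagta
Aurka, site: aaccTTTGAAttgt
Bub1: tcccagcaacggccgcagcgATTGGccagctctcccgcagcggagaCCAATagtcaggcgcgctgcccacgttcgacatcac
Bub1, site: ggaaTTCGAAtcgc

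By group means, 31 of the 49 genes (63.3%; all genes 21.2%) were lowest in the PC-La samples and highest in the SePC-La samples, with Laser between. They were 16 of the 24 replication genes, Mcm3, Mcm5 and Mcm7 of the helicase among them, and 15 of the 25 mitosis genes, with Cdc20, Kif23 and Tpx2. Mki67 and Cenpf were lowest in SePC-La. Differences are given as log2 fold changes of FPKM + 1, the second group named being the reference. The differences were small, at most 1.76-fold between group means for any member. No member passed a Benjamini-Hochberg adjusted p under 0.05 in limma over all genes tested, and no other gene did (0 of 10853, 0.0%, in each of the 3 comparisons), so what follows describes levels and their spread. At an unadjusted p under 0.05 there were 627 genes in PC-La against Laser, 1318 in SePC-La against Laser and 2637 in SePC-La against PC-La. The limma voom method on recovered reads called 0 genes as well. In SePC-La against PC-La other settings called some genes at an adjusted p under 0.05: 3 with a minimum mean of 5 FPKM, 6 with median-ratio scaling, 8 with quantile normalization, 637 with only the 4 samples compared, 639 without Laser 1, 643 without Laser 2 and 1 without SePC-La 2. In the comparisons with Laser, 312 genes were called in PC-La and 97 in SePC-La without Laser 1, and 1 in SePC-La without SePC-La 2. In bulk tumor RNA, fewer dividing cells and less of these RNAs in each dividing cell cannot be told apart. A p here sets a difference against a spread pooled from the 2 samples within each of the 3 groups and drawn toward that of other genes. An exact permutation test of 2 samples against 2 could not give a p below 0.333.

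**Figure D1:**
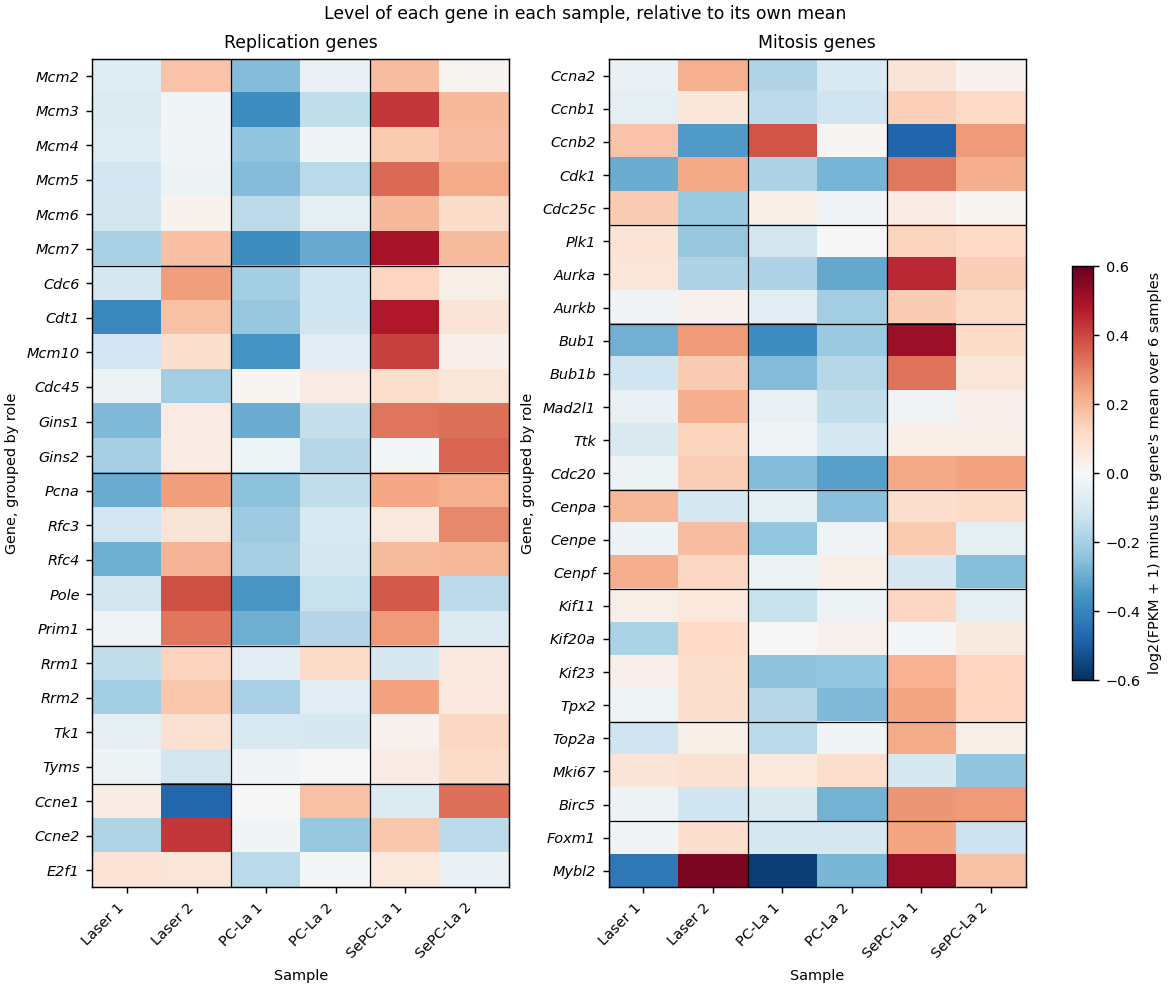
Level of each gene in each of the 6 samples as log2(FPKM + 1) minus its mean over the samples, replication genes on the left and mitosis genes on the right, with lines between roles and groups. Blue prevails in the PC-La columns and red in the SePC-La columns, Mki67 and Cenpf are blue in both SePC-La columns, and the Laser samples differ from each other.

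The recovered depth was between 14447792 and 17649489 reads per sample, and the members had between 187 and 11667 reads in a sample. The 2 Laser samples were unlike each other. Over the members the median absolute difference between them was 0.25 on the log2 scale. It was 0.11 between the PC-La samples and 0.12 between the SePC-La samples. Over all genes tested the same medians were 0.23, 0.11 and 0.19. Replicate 2 had the higher value for 38 of 49 members under Laser. The other pairs were one-sided as well: replicate 2 was higher for 35 members with PC-La, but for only 14 with SePC-La. The samples also differed in marker RNA of other cells. The summed level of 5 fibroblast markers was 941 and 248 FPKM under Laser, against 1300 and 1170 under PC-La and 95.3 and 531 under SePC-La. That of 5 skeletal muscle markers was 19.0 and 124 FPKM in Laser, and between 1.48 and 5.9 in the other samples.

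The 6 genes of the MCM helicase had the same direction in each comparison. All 6 were higher in both SePC-La samples than in both PC-La samples (all genes 26.0%), with a median log2 fold change of 0.40 (range 0.25 to 0.68). In PC-La against Laser all 6 were lower by their means, with a median of -0.17, and in SePC-La against Laser all 6 were higher, with a median of 0.28. Mcm5 (chr8:75109569-75128439) was at 38.9 and 41.4 FPKM in the samples given laser alone, 35.1 and 37.7 with PC-La and 53.8 and 49.5 with SePC-La. The 3 groups of Mcm5 did not overlap. Its difference of SePC-La from PC-La was 0.49 on the log2 scale (SE 0.12, unadjusted p = 0.00533, adjusted p = 0.126 in limma), and that from Laser was 0.35 (SE 0.12, adjusted p = 0.382). Mcm3 (chr1:20802968-20820312) was at 62.3 and 65.2 FPKM (Laser), 50.6 and 59.4 (PC-La) and 88.7 and 75.5 (SePC-La). It stood in the same order without overlap, and SePC-La was 0.57 above PC-La (SE 0.14, adjusted p = 0.126 in limma) and 0.36 above Laser (SE 0.14, adjusted p = 0.407).

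Mcm7 (chr5:138164583-138172422) had the largest difference of the replication genes. Its level was 43.1 and 56.2 FPKM under Laser, against 37.9 and 39.9 under PC-La and 70.0 and 56.5 under SePC-La. Laser 2 and SePC-La 2 were nearly level, and both PC-La samples were below all others. SePC-La was 0.68 above PC-La on the log2 scale (SE 0.18, 95% interval 0.26 to 1.10, adjusted p = 0.129 in limma). Mcm2 was at 20.7 and 24.7 FPKM in the samples given laser alone, 18.1 and 21.2 with PC-La and 25.0 and 22.1 with SePC-La. The Laser values of Mcm2 reached into both other groups, and it had the smallest difference of the 6 between SePC-La and PC-La (0.25, SE 0.15). Mcm4 and Mcm6 lay between, at 0.30 and 0.26.

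Genes that load the helicase and fire origins went the same way in 6 of 6 for SePC-La against PC-La. All 6 were without overlap (all genes 26.0%), with a median of 0.35. Gins1 (chr2:150905400-150931280), a subunit of the GINS complex, was at 13.3 and 16.8 FPKM (Laser), 13.0 and 14.6 (PC-La) and 20.5 and 20.6 (SePC-La). Both SePC-La values were above all others, and the other 2 groups overlapped. Gins1 was 0.55 higher in SePC-La than in PC-La (SE 0.15, adjusted p = 0.134 in limma) and 0.43 higher than in Laser (SE 0.15, adjusted p = 0.382). The licensing factor Cdt1 was at 25.3 and 37.8 FPKM under Laser, against 28.4 and 30.6 under PC-La and 47.0 and 35.2 under SePC-La. Its Laser samples spanned the PC-La values, and its difference of 0.45 between SePC-La and PC-La had an SE of 0.22. Cdc45, which completes the helicase, was the exception by the Laser group: at 15.2 and 13.3 FPKM it was below PC-La (15.6 and 16.1) and SePC-La (16.8 and 16.4). Cdc6 and Mcm10 were 0.24 and 0.43 higher in SePC-La than in PC-La, and Gins2 was 0.27 higher.

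Among the genes at the fork, Pcna had the highest mean level of the replication genes, 134 FPKM. It was at 107 and 157 FPKM in the samples given laser alone, 111 and 119 with PC-La and 155 and 153 with SePC-La. The Laser samples alone covered the whole range of the others, and SePC-La was above PC-La in both samples (0.41, SE 0.19). Pole, the catalytic subunit of the leading strand polymerase, had the lowest mean of the list, 5.30 FPKM, with 4.73 and 7.06 FPKM (Laser), 3.85 and 4.63 (PC-La) and 6.97 and 4.54 (SePC-La). Pole was the only member of its role whose SePC-La and PC-La samples overlapped. Prim1, the primase subunit, was at 14.4 and 18.6 FPKM under Laser, against 11.8 and 12.9 under PC-La and 17.7 and 13.8 under SePC-La. Both PC-La values of Prim1 were below all others, and PC-La was 0.38 lower than Laser on the log2 scale, the replication member with the smallest p there (log2 fold change -0.38, SE 0.18, unadjusted p = 0.074, adjusted p = 0.753 in limma). The clamp loader genes Rfc3 and Rfc4 were 0.33 and 0.35 higher in SePC-La than in PC-La.

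Genes of deoxynucleotide supply differed less, with a median of 0.13 for SePC-La against PC-La. Rrm2, the regulated subunit of ribonucleotide reductase, was at 40.1 and 52.1 FPKM in the samples given laser alone, 40.3 and 44.2 with PC-La and 54.9 and 48.3 with SePC-La. Its SePC-La samples were above PC-La and overlapped Laser (0.28 above PC-La, SE 0.16). Rrm1, the large subunit, had a log2 fold change of -0.05 for SePC-La against PC-La (SE 0.15), which became 0.05 with median-ratio scaling. Tk1 and Tyms, which supply thymidylate, were 0.17 and 0.09 higher.

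The genes of the G1/S switch did not follow the helicase. The cyclin Ccne1 was at 6.14 and 3.98 FPKM (Laser), 5.91 and 6.80 (PC-La) and 5.54 and 7.70 (SePC-La). Its partner gene Ccne2 was at 6.70 and 10.7 FPKM under Laser, against 7.62 and 6.46 under PC-La and 8.77 and 6.83 under SePC-La. The groups of both cyclins overlapped in every comparison, and the 2 Laser samples of each were far apart. E2f1, the factor itself, was at 15.3 and 15.2 FPKM in the samples given laser alone, 12.8 and 14.3 with PC-La and 15.1 and 14 with SePC-La. Both treated groups of E2f1 were below the Laser samples, by log2 fold changes of -0.16 and -0.06 (SE 0.12 each), the second of which changed sign with median-ratio scaling. The 3 genes were between 0.04 and 0.13 higher in SePC-La than in PC-La, each less than its standard error.

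Over the 24 replication genes the median log2 fold change was -0.12 in PC-La against Laser (4 higher and 20 lower), 0.20 in SePC-La against Laser (19 higher) and 0.29 in SePC-La against PC-La (23 higher). Over all genes tested the medians were -0.00, -0.06 and -0.07. At an unadjusted p under 0.05 there were 0, then 3 (Mcm3, Mcm5 and Gins1, 12.5%) and then 4 (with Mcm7, 16.7%) replication genes, all of them higher, against 3.38%, 4.9% and 9.91% of all genes. These counts changed when a sample was left out, and so did the shares of all genes, so the changes are not particular to the members. The 2 SePC-La comparisons share the SePC-La samples and all 3 share a fit, so these counts are not independent.

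**Figure D2:**
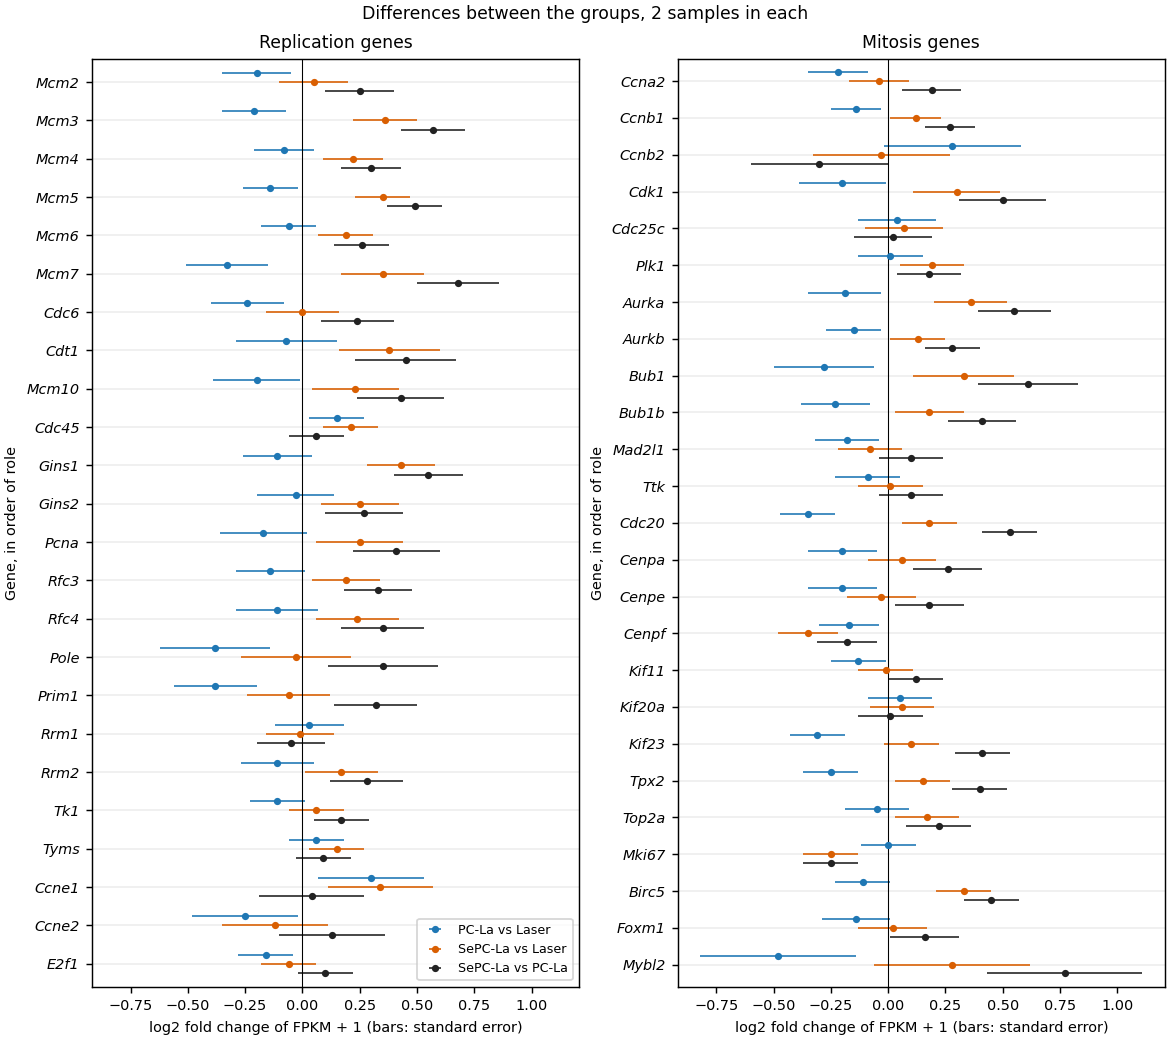
log2 fold change of each gene in the 3 comparisons, with its standard error from the limma fit as a bar, 2 samples in each group. The black points (SePC-La against PC-La) lie right of 0 for 45 of 49 genes, and the blue points (PC-La against Laser) lie left of 0 for 41 of 49.

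The mitosis genes showed the same order of groups with more exceptions. Cdc20 (chr4:118432901-118437352), the activator that turns the APC/C ubiquitin ligase on cyclin B, was at 59.5 and 67.6 FPKM (Laser), 50.7 and 48.3 (PC-La) and 71.4 and 72.1 (SePC-La). The 3 groups of Cdc20 did not overlap. PC-La was below Laser (log2 fold change -0.35, SE 0.12, unadjusted p = 0.0264, adjusted p = 0.753 in limma) and SePC-La was above PC-La (0.53, SE 0.12, 95% interval 0.23 to 0.82, adjusted p = 0.126). When the fit held only the 4 samples compared, Cdc20 had an adjusted p of 0.0495 in limma with the same fold change, and without Laser 1 or Laser 2 it was 0.0494 and 0.0492. These fits called 5.87%, 5.89% and 5.92% of all genes, and Cdc20 alone of the 49 members (2.04%), a share below that of all genes. No other member passed an adjusted p under 0.05 in any of the fits tried. The spindle checkpoint genes Bub1 and Bub1b were 0.61 and 0.41 higher in SePC-La than in PC-La, and Mad2l1 and Ttk 0.10 higher. All 5 genes of this role were above PC-La in both SePC-La samples (all genes 26.0%), with a median of 0.41.

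Kif23 (chr9:61915905-61946774), a kinesin of the central spindle, was at 12 and 12.7 FPKM under Laser, against 9.74 and 9.81 under PC-La and 13.7 and 12.9 under SePC-La. It was below Laser in PC-La (log2 fold change -0.31, SE 0.12, unadjusted p = 0.0367 in limma) and above PC-La in SePC-La (0.41, SE 0.12, adjusted p = 0.138). Its groups did not overlap, and the PC-La samples stood furthest from the others. Tpx2, which brings Aurora A to the spindle, was at 34.1 and 37.1 FPKM in the samples given laser alone, 30.7 and 28.7 with PC-La and 41.0 and 38.0 with SePC-La. The same order without overlap was seen, with log2 fold changes of -0.25 and 0.40 (SE 0.12 each) for PC-La against Laser and SePC-La against PC-La. The motors Kif11 and Kif20a differed by 0.12 and 0.01 between SePC-La and PC-La.

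Of the kinases, Aurka was at 22.2 and 18.4 FPKM (Laser), 18.4 and 16.8 (PC-La) and 29.2 and 23.4 (SePC-La). Both SePC-La samples of Aurka were above all others, by 0.55 over PC-La (SE 0.16, adjusted p = 0.14 in limma) and 0.36 over Laser (SE 0.16, adjusted p = 0.426). Birc5, the survivin subunit of the chromosomal passenger complex, was at 24.9 and 23.3 FPKM under Laser, against 23.9 and 20.7 under PC-La and 30.8 and 30.6 under SePC-La. It was the mitosis gene with the smallest p among those higher in SePC-La than in Laser (0.33, SE 0.12, unadjusted p = 0.034, adjusted p = 0.388 in limma). Aurkb, its partner kinase, was 0.28 higher in SePC-La than in PC-La, and Plk1 0.18 higher, each without overlap.

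The central kinase Cdk1 was at 24.4 and 35.5 FPKM in the samples given laser alone, 26.5 and 24.7 with PC-La and 37.9 and 35.3 with SePC-La. Laser 1 was with the PC-La samples and Laser 2 with the SePC-La samples, and SePC-La was 0.50 above PC-La (SE 0.19). Its cyclin Ccnb1 was at 29.0 and 31.6 FPKM (Laser), 26.9 and 27.7 (PC-La) and 33.4 and 32.8 (SePC-La), in 3 groups that did not overlap (SePC-La against PC-La 0.27, SE 0.11). The second cyclin gene, Ccnb2 (chr9:70407692-70421547), did not follow: it was at 50.2 and 34.9 FPKM under Laser, against 58.0 and 44.6 under PC-La and 31.7 and 53.2 under SePC-La. Its samples differed more within a group than the group means did, and it was named after its values were seen. Cdc25c, the phosphatase that activates Cdk1, had the lowest mean of the mitosis genes (3.70 FPKM), with 4.20 and 3.01 FPKM in the samples given laser alone, 3.80 and 3.61 with PC-La and 3.84 and 3.71 with SePC-La, all of them within the range of the Laser samples.

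Mki67 and Cenpf were lower in both SePC-La samples than in all others. In PC-La against Laser, Cenpf was lower without overlap, as were 10 other mitosis genes (all genes 21.6%), and Mki67 overlapped. Mki67 (chr7:135689784-135716361), which encodes the Ki-67 protein used to mark dividing cells, was at 40.0 and 40.5 FPKM (Laser), 39.6 and 40.8 (PC-La) and 35.4 and 32.0 (SePC-La). The 2 SePC-La samples were the lowest, with a log2 fold change of -0.25 against each other group (SE 0.12, adjusted p = 0.437 against Laser and 0.243 against PC-La in limma). Cenpf (chr1:189640606-189688086), a kinetochore protein, was at 12 and 11.2 FPKM under Laser, against 9.94 and 10.5 under PC-La and 9.46 and 8.38 under SePC-La. It was lower in SePC-La than in Laser without overlap (log2 fold change -0.35, SE 0.13, unadjusted p = 0.0335, adjusted p = 0.388 in limma). Top2a, the topoisomerase that untangles sister chromosomes, had the highest mean of the mitosis genes (71.7 FPKM) and stood at 65.6 and 73.3 FPKM in the samples given laser alone, 63.7 and 70.6 with PC-La and 83.6 and 73.3 with SePC-La. It was 0.22 higher in SePC-La than in PC-La (SE 0.14), in the direction opposite to Mki67. Both Mki67 and Cenpf are long genes, and long genes stood lower in SePC-La by the median of all genes. The part of length in the values of Mki67 and Cenpf was not tested. After a correction of each sample for a trend on exon length, added after seeing the data, Mki67 was at -0.06 against each other group, and Cenpf at -0.08 against Laser (unadjusted p = 0.513 in limma) and 0.07 against PC-La.

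Of the factors that drive mitotic genes, Mybl2 and Foxm1 had the same order of group means, with smaller differences for Foxm1. Mybl2 (chr2:163054687-163084688), the B-MYB gene, was at 12.3 and 25.5 FPKM (Laser), 11.1 and 13.8 (PC-La) and 24.7 and 19.2 (SePC-La). It had the largest difference of the 49 members between SePC-La and PC-La, 0.77 on the log2 scale, and with the spread of the Laser samples its SE was 0.34 (95% interval -0.06 to 1.59, adjusted p = 0.227 in limma). Foxm1 was at 14.2 and 15.5 FPKM under Laser, against 13.3 and 13.4 under PC-La and 17.1 and 13.1 under SePC-La. SePC-La 2 held the lowest Foxm1 value and SePC-La 1 the highest.

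**Figure D3:**
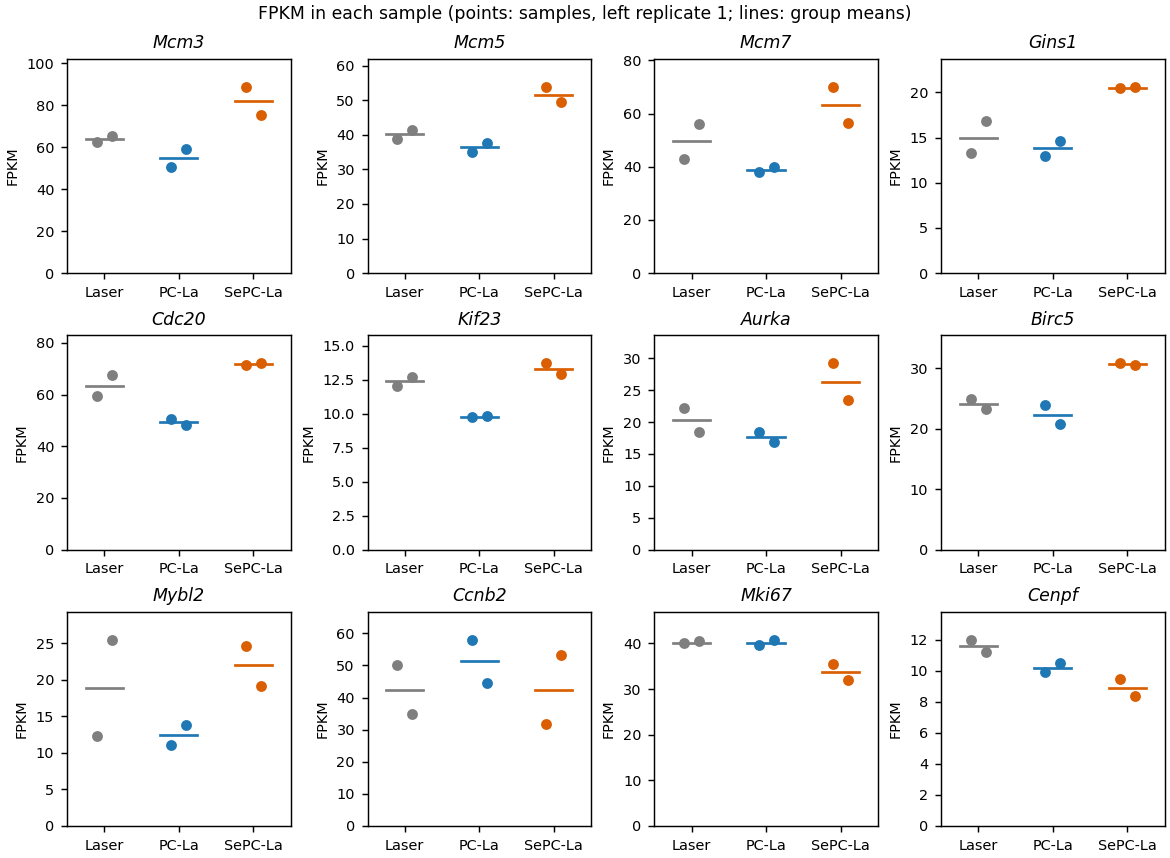
FPKM of 12 members in each sample, with replicate 1 on the left of each pair and a line at the group mean. Mcm3, Mcm5, Cdc20 and Kif23 stand in the order PC-La, Laser, SePC-La without overlap, Mki67 and Cenpf are lowest in SePC-La, and Mybl2 and Ccnb2 vary most within groups.

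Over the 25 mitosis genes the median log2 fold change was -0.17 in PC-La against Laser (4 higher and 21 lower), 0.10 in SePC-La against Laser (18 higher) and 0.22 in SePC-La against PC-La (22 higher). At an unadjusted p under 0.05, Cdc20 and Kif23 were lower in the first (8%; all genes 2.4%), Birc5 was higher and Cenpf lower in the second (4% each; all genes 4.9% and 7.24%), and 8 genes were higher in the third (32%; all genes 9.91%; Aurka, Birc5, Bub1, Bub1b, Cdc20, Cdk1, Kif23 and Tpx2). These counts rested on single samples too: they changed when a sample was left out, as did the shares of all genes.

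Counts of members were read against the same counts over all genes tested. In SePC-La against PC-La, 12 of 49 members were higher at an unadjusted p under 0.05 (24.5%) and 0 were lower, while 9.91% of all genes were higher and 14.4% lower (1075 and 1562 genes). With median-ratio scaling 1511 genes were higher and 1086 lower, and 20 members passed. In SePC-La against Laser the split of all genes was 532 higher and 786 lower, and 810 and 458 with that scaling, with 5 members passing in both. Both SePC-La samples were above both PC-La samples for 36 members (73.5%; all genes 26.0%), and both were below for 2, Mki67 and Cenpf (4.08%; all genes 39.5%). In SePC-La against Laser 4 members were higher at that p (8.16%; all genes 4.9%) and 1 was lower (2.04%; all genes 7.24%), and 16 were higher without overlap (32.7%; all genes 15.0%) and 3 lower (6.12%; all genes 25.6%). In PC-La against Laser 0 members were higher (all genes 3.38%) and 2 were lower (4.08%; all genes 2.4%), and 2 were higher without overlap (4.08%; all genes 20.4%) and 19 lower (38.8%; all genes 21.6%). An absolute log2 fold change over 1 with an unadjusted p under 0.05 was met by 0 members in each comparison, and by 1.29%, 0.682% and 2.98% of all genes in PC-La against Laser, SePC-La against Laser and SePC-La against PC-La.

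Both PC-La samples were below both Laser samples, and those below both SePC-La samples, for 8 members: Mcm3, Mcm5 and Mcm7 of the replication genes, and Ccnb1, Cdc20, Aurkb, Kif23 and Tpx2 of the mitosis genes. Over all genes tested 4.05% had this order and 4.51% the opposite order, which 0 members had. By sample, SePC-La 1 held the highest value of 9 replication and 13 mitosis genes, and PC-La 1 the lowest of 13 and 9. Laser 2 held the highest of 7 and 6.

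The median deviation of the replication genes from their own means was -0.11 (Laser 1), 0.09 (Laser 2), -0.21 (PC-La 1), -0.10 (PC-La 2), 0.19 (SePC-La 1) and 0.11 (SePC-La 2). In the same order of samples that of the mitosis genes was -0.03, 0.10, -0.13, -0.12, 0.15 and 0.12. The sample with the most fibroblast marker RNA, PC-La 1 (1300 FPKM), had the lowest medians, and the sample with the least, SePC-La 1 (95.3 FPKM), had the highest. Most of this sum came from Col3a1 (72.8 to 895 FPKM) and Dcn (13.6 to 365). Col1a1 and Col1a2 went another way: both were highest in SePC-La 2 (23.2 and 10.1 FPKM) and lowest in Laser 2 (1.91 and 0.944). Within the Laser group, too, the sample with less fibroblast RNA, Laser 2, had the higher members, and Laser 2 also had the most skeletal muscle RNA (124 FPKM). All 5 fibroblast markers (Col1a1, Col1a2, Col3a1, Pdgfra and Dcn) had a mean above 1 FPKM. Markers of macrophages summed to 567 and 599 FPKM in the samples given laser alone, 761 and 811 with PC-La and 335 and 630 with SePC-La. Most of that sum came from C1qa and C1qb. By group means C1qa, C1qb, Csf1r and Adgre1 were higher in PC-La than in Laser. Cd68 (56.5 against 68.0 FPKM), Mrc1 (14.4 against 28.2) and Itgam (7.82 against 12.7) were lower. Neutrophil markers summed to 148 and 31.9 FPKM (Laser), 145 and 77.3 (PC-La), and 331 and 435 (SePC-La). In the same order those of erythroid cells were 115 and 12.6, 239 and 319, and 559 and 817. Markers of T and NK cells summed to between 6.39 and 20.3 FPKM and those of endothelium to between 21.4 and 37.6, while those of B cells and keratinocytes stayed under 1, with Krt5 and Krt14 at 0. The part of these cells in the members' values was not tested.

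**Figure D4:**
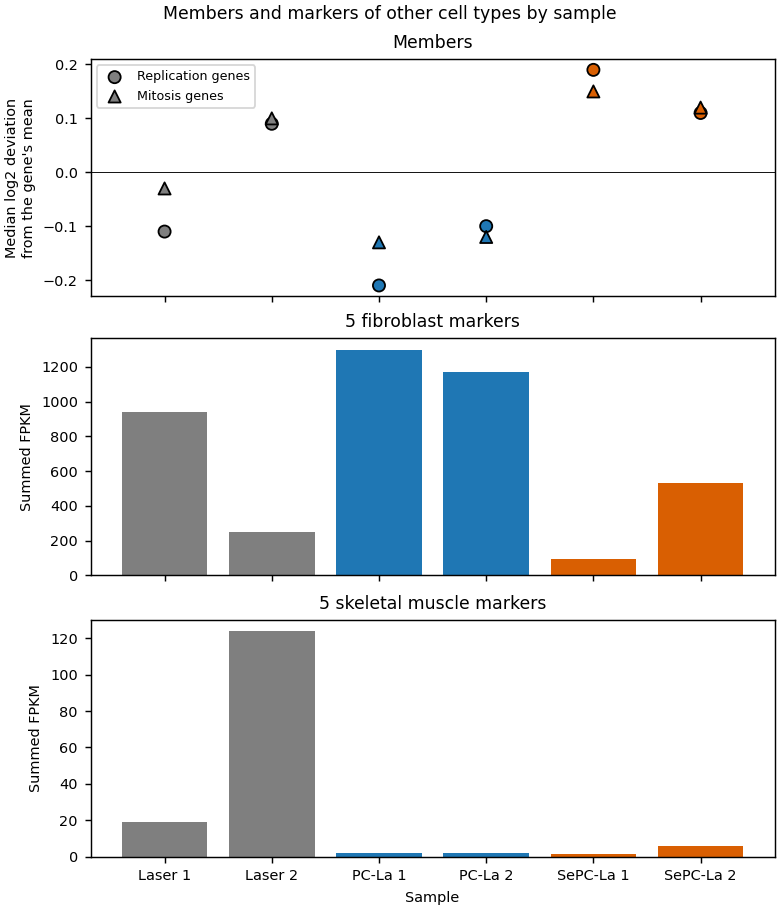
Median log2 deviation of the replication and mitosis genes from their own means by sample (top), and summed FPKM of 5 fibroblast markers (middle) and 5 skeletal muscle markers (bottom), on linear axes. The members are lowest in PC-La 1, where fibroblast markers sum to 1300, and highest in SePC-La 1, where they sum to 95.3.

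Across the 6 samples most members varied together. A replication gene had a median Pearson r of 0.86 with the mean of the other replication genes, and a mitosis gene of 0.75 with the mean of the other mitosis genes. These are descriptions over 6 samples that share a normalization. Ccne1 was the replication gene with a negative r (-0.20), and Ccnb2 (-0.74), Mki67 (-0.58), Cenpf (-0.32) and Cdc25c (-0.27) were those of the mitosis genes. The means of both lists had an r of 0.90 with each other. The 5 other genes most like the mean of all members were Nop9, Cdipt, Pa2g4, Txnrd1 and Eftud2, with r from 0.994 to 0.995 over 6 samples. Pa2g4, for example, was at 116 and 154 FPKM (Laser), 99.8 and 114 (PC-La) and 190 and 155 (SePC-La). Txnrd1, which encodes the selenoprotein thioredoxin reductase 1, was at 37.7 and 51.7, 32.1 and 37.7, and 58.4 and 51.8.

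The other genes of the pathway were taken from 6 lists with 133 genes. The shares of all genes higher at this p, 3.38% in PC-La against Laser, 4.9% in SePC-La against Laser and 9.91% in SePC-La against PC-La, stand beside the counts that follow. Of 35 further replication genes tested, 0 were higher or lower at an unadjusted p under 0.05 in PC-La against Laser, 1 (2.86%, below the share of all genes) was higher in SePC-La against Laser (Pold2, 0.42) and 10 (28.6%) were higher in SePC-La against PC-La, with medians of -0.14, 0.10 and 0.25. The smallest p there were those of Pold2, a subunit of polymerase delta (0.63), and Chaf1a and Chaf1b, of the chromatin assembly factor (0.51 and 0.59). Of 46 further mitosis genes, 1 was lower in PC-La against Laser (Kif22, log2 fold change -0.36). That is 2.17%, below the 2.4% of all genes lower there. In SePC-La against Laser 6 (13.0%) were higher, and in SePC-La against PC-La 14 (30.4%). In this order of comparisons the medians were -0.16, 0.07 and 0.22. Ube2c, the ubiquitin carrier of the APC/C, was at 46.0 and 40.9 FPKM under Laser, against 40.9 and 36.8 under PC-La and 67.1 and 63.4 under SePC-La. Its SePC-La samples were above all others, with differences of 0.58 from Laser and 0.74 from PC-La (SE 0.13 each, adjusted p = 0.376 and 0.123 in limma). Cdca8, a passenger protein, and Tacc3, a spindle protein, were 0.65 and 0.49 higher in SePC-La than in PC-La, and Cks1b, which binds CDKs, was 0.41 higher in SePC-La than in Laser.

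Upstream genes are given in 4 lists, and the shares of all genes lower at this p were 2.4%, 7.24% and 14.4% in the same order of comparisons. A single gene is 10.0% of the cycle inhibitors, 8.33% of the E2F and MuvB factors and 7.69% of the checkpoint genes tested. Of 12 G1 cyclins, CDKs and pocket proteins, 1 was lower in PC-La against Laser, 1 was higher and 2 were lower in SePC-La against Laser, and 1 was higher and 1 lower in SePC-La against PC-La, with medians of -0.07, -0.08 and -0.06, and a single gene is 8.33% of this list. Myc, a transcription factor that promotes growth and entry into the cycle, was at 185 and 256 FPKM in the samples given laser alone, 122 and 133 with PC-La and 448 and 295 with SePC-La. It stood in the order of the helicase genes with larger steps, -0.77 for PC-La against Laser, 0.74 for SePC-La against Laser and 1.51 for SePC-La against PC-La (SE 0.24 each, adjusted p = 0.753, 0.382 and 0.12 in limma). Rb1, the retinoblastoma gene, was lower in SePC-La at 3.24 and 3.54 FPKM, with 4.60 and 4.95 under Laser and 5.17 and 5.49 under PC-La, at log2 fold changes of -0.39 and -0.53. Its relative Rbl2 was lower in SePC-La than in Laser (log2 fold change -0.47).

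Of 10 inhibitors of the cycle tested, 1 was higher and 1 lower in PC-La against Laser, 2 were higher and 1 lower in SePC-La against Laser, and 2 were higher and 3 lower in SePC-La against PC-La, with medians of 0.20, 0.01 and -0.21. Ccng1, a p53 target, was at 43.1 and 28.6 FPKM (Laser), 86.7 and 79.4 (PC-La) and 18.7 and 39.2 (SePC-La). It was higher in both PC-La samples than in all others, by 1.22 over Laser, and SePC-La stood at -1.58 against PC-La (SE 0.36 each, adjusted p = 0.753 and 0.126 in limma). Cdkn1a, the p21 gene, was at 28.8 and 17.4 FPKM under Laser, against 34.9 and 32.5 under PC-La and 30.3 and 38.7 under SePC-La, above Laser in all samples of both treated groups (0.57 and 0.59, SE 0.24 each). Cdkn1b, the p27 gene, was lower in SePC-La, with log2 fold changes of -0.52 against Laser and -0.71 against PC-La. Pkmyt1, a kinase that holds Cdk1 back, was lower in PC-La against Laser (-0.35) and 0.48 higher in SePC-La against PC-La, and Btg1 was 0.49 higher in SePC-La than in Laser.

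Of 12 E2F and MuvB factors tested, 1 was lower in PC-La against Laser (E2f5, log2 fold change -0.35), 0 passed in SePC-La against Laser, and 1 was higher (E2f4, 0.36) and 1 lower (E2f6, log2 fold change -0.57) in SePC-La against PC-La, with medians of -0.09, -0.07 and 0.04. Of 13 genes of the damage and replication checkpoint, 0 passed in PC-La against Laser, 1 was higher in SePC-La against Laser (H2ax, 0.51), and 1 was higher (H2ax, 0.58) and 1 lower (Atm, log2 fold change -0.52) in SePC-La against PC-La, with medians of -0.16, -0.07 and 0.05. H2ax, a histone gene, was at 115 and 117 FPKM in the samples given laser alone, 114 and 107 with PC-La and 161 and 169 with SePC-La.

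The length of a gene moved with the difference. In SePC-La against Laser the log2 fold change and the log2 of the merged exon length had an r of -0.54 over the 49 members and of -0.33 over all genes tested. In SePC-La against PC-La these were -0.27 and -0.20, and in PC-La against Laser -0.20 and -0.04. In SePC-La against Laser the median log2 fold change of all genes went from 0.10 to -0.20 between the shortest and the longest of 5 equal groups by length, and that of the members from 0.22 (6 genes) to -0.03 (9 genes). Cenpf, with 15433 bases, was the longest member, and Mki67 had 10061 and Gins1 1516. With the correction for exon length the difference of Gins1 in SePC-La against Laser went from 0.43 to 0.33. The median of SePC-La against PC-La was then 0.32 for both lists. An unadjusted p under 0.05 was seen for 9 replication and 11 mitosis genes, and for 21.8% of all genes. Of the 49 members, 6 changed sign in SePC-La against Laser, and 2 (Cenpf and Rrm1) in SePC-La against PC-La.

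**Figure D5:**
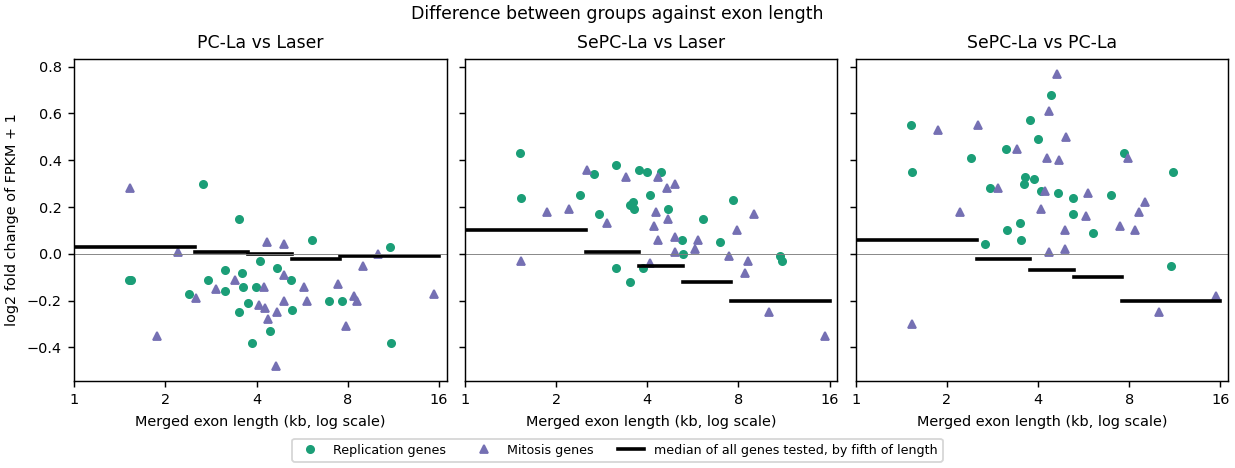
log2 fold change of each member against its merged exon length in kb on a log axis, for the 3 comparisons, with black lines at the median of all genes tested in each of 5 equal groups by length (drawn between 1 and 16 kb). In the SePC-La comparisons the black lines go down with length, to -0.20 in the longest group, and most members lie above them.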

How the data were processed

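RNA of 6 tumor samples was sequenced. The authors deposited 1 table of FPKM values per gene and sample. Which unit it is was worked out from the numbers: with merged exon lengths (GENCODE M21, GRCm38) each value gave whole reads for 97.8% of expressed genes in all 6 samples (tolerance 0.02 reads). The submitters' processing notes name HISAT2 2.0.5, HTSeq 0.9.1, DESeq 1.30.0 and mm9. Those exon lengths are of another build, and coordinates here are of GRCm38. The labels and the paper's methods list 2 samples per group, its results text states another number, and paper and labels differ in the irradiation and injection. The labels were followed. Differences were fitted with limma 3.58.1 (R 4.3.3) on log2(FPKM + 1) for the 10853 genes whose mean reached 1 FPKM, with all 6 samples, with trend and robust estimation and Benjamini-Hochberg adjustment. Fold changes on this scale understate those of low genes. The fold criterion follows the study's methods. The members and lists were chosen with earlier results of these data known. Values by sample are given for 14 anchor genes, for the 3 members of each list with the smallest p in each comparison, and for the highest and lowest means. Cdc45 and Ccnb2 were added after their values were seen. Nothing in the labels says whether samples of a group came from separate mice. The fit was tested on simulated data with a common spread for all genes. The differences set there were larger than any of the members, so that test does not cover differences of their size. Tables were made with pandas 2.3.3 and NumPy 2.4.6 in Python 3.11.15, and plots with matplotlib 3.10.9.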

Additional observations from a re-analysis of the deposited data

How the results depend on the processing

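Alternatives were another pseudocount, other filters, scalings and moderation, the 4 samples compared alone, the replicate number as a block, voom, an exon-length correction and each sample left out. The length correction and the crossed pairing were chosen after seeing the data. Counts below are of members with an unadjusted p under 0.05. The medians of both lists kept their sign under all of them, and the cause of the shifts below was not tested. A further 54 differences of single genes, members and other pathway genes, were picked for an unadjusted p under 0.05 in these same data. None of them changed sign, which this choice made likely. Of the 54, 14 no longer passed with quantile normalization, 16 with the replicate block and 19 with the exon-length correction and that block. Leaving out single samples weakened some of them too. Among all members, 8 changed sign in SePC-La against Laser with median-ratio scaling, from differences of at most 0.06 in size.

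With any of the 6 samples left out, the replication count of PC-La against Laser was 0 to 8 (0 with all samples), its median -0.26 to -0.02, the mitosis count 0 to 6 (2 with all samples) and its median -0.20 to -0.10. In SePC-La against Laser the replication count was 0 to 6 (3 with all samples), its median 0.10 to 0.25, and the mitosis count 0 to 4 (2 with all samples). In SePC-La against PC-La the replication count was 1 to 7 (4 with all samples), and the mitosis count 1 to 11 (8 with all samples) with a median of 0.15 to 0.29. The lone sample left in a group was taken to vary like the others. Across these fits the share of all genes passing rose and fell too, so the ranges are not read as particular to the members. In PC-La against Laser that share and both member counts were largest in the fit without Laser 1.

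Brackets here give the share of all genes that passed, higher or lower. With quantile normalization the replication count of SePC-La against Laser was 1 (9.43%). With only the 4 samples compared the counts of SePC-La against Laser were 1 and 0 (6.45%). The replication count of SePC-La against PC-La was then 7 (33.4%). Median-ratio scaling gave a mitosis median of 0.18 in SePC-La against Laser. In SePC-La against PC-La it gave 9 replication genes (23.9%) with a median of 0.39, and a mitosis median of 0.32. The exon-length correction gave 9 replication genes (21.8%) and a mitosis median of 0.32 in SePC-La against PC-La. With the replicate block added the median was 0.32. The counts of the comparisons with Laser were then 1 for mitosis in PC-La (4.46%) and 1 for each list in SePC-La (6.42%).

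Deviations of samples with the same number had correlations of 0.086 (Laser and PC-La), -0.428 (Laser and SePC-La) and -0.177 (PC-La and SePC-La). With 2 samples per group the deviations mirror each other, so these values cannot decide whether the numbers pair the samples. With the replicate block the mitosis counts were 0, 1 and 5 in PC-La against Laser, SePC-La against Laser and SePC-La against PC-La. Of all genes 4.16%, 8.64% and 18.7% passed there. With the SePC-La numbers crossed, 7 members passed against Laser and 17 against PC-La, 5 and 8 of them replication genes. Of all genes 14.5% and 29.1% passed in these, so the counts are not read as particular to the members.

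Counting error limits the low genes most, since the member with the fewest reads had 187 in a sample, and only 2 samples per group stand behind each spread.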
